A study of Mus musculus with 3 samples.

Results

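The expression of 8 genes of neurofilaments, neurite outgrowth and neural cell adhesion was followed in differentiating C2C12 cells, a mouse myoblast line that withdraws from the cell cycle and fuses into myotubes when serum is lowered. The genes were Nefl, Nefm, Nes, Stmn2, Gap43, L1cam, Ncam1 and Uchl1, and all 8 were found by symbol among the 22068 genes listed for each library. They were chosen with their levels in these libraries known, most of them because they stood above the control with Linc-RAM overexpression and below it with knockdown, so the values that follow describe them and no test was run. Linc-RAM is a long non-coding RNA of muscle cells, and the libraries were made to ask how raising or lowering it alters gene expression during myogenic differentiation.

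Each of 3 stable lines gave 1 library of polyadenylated RNA after 12 h in differentiation medium. The overexpression line carried a lentivirus with Linc-RAM, which the methods place behind a CMV promoter, the knockdown line carried one whose U6 promoter drove a hairpin (shRNA) that targets Linc-RAM, and the control line carried the empty vector. All 3 lines were selected with blasticidin. The labels do not say which hairpin was used or whether a line was a clone or a pool, and the control held no hairpin. Both comparisons were set against the same control library, no condition has a replicate, and the 95% intervals given here are exact (Clopper-Pearson for ratios, Poisson for levels) and cover counting error only.

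Levels are RPKM, reads per kilobase of gene scaled to the mapped reads of the library. The read totals recovered from the values were 5130481 in the control but 2105513 and 1878146 in the overexpression and knockdown lines, so that 1 read on a gene of 1 kb was worth 0.195, 0.475 and 0.532 RPKM. A count of 0 on such a gene allows up to 0.585, 1.42 and 1.597 RPKM in that order (3 reads). Over the 5897 genes averaging 5 RPKM or more across the libraries, the median log2 ratio to the control was near 0, at −0.00155 with overexpression and −0.0333 with knockdown. Linc-RAM itself, listed as 2310015B20Rik, was listed at 0, 1.07 and 0 RPKM (values are given in the order control, overexpression, knockdown), and the 1.07 RPKM is worth 1 read at a length of 443 nt, so it does not check the labels. All 6 listed myoblast markers were present in every library, among them the intermediate filament gene Des at 291, 386 and 145 RPKM and the myogenic factor gene Myf5 at 11.7, 15.7 and 10.5 RPKM.

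Neurofilaments are the intermediate filaments of axons. The light chain, encoded by Nefl, can assemble with the medium chain, encoded by Nefm, and the array sets the calibre of the axon. Nestin, the product of Nes, is an intermediate filament of neural progenitors that is also made by myoblasts and young myotubes. Stathmin 2, encoded by Stmn2, binds tubulin and acts on microtubules in growth cones. GAP-43 sits on the inner face of the growth cone membrane. L1CAM and NCAM are immunoglobulin-type adhesion molecules of neurites, and NCAM is also a surface protein of myoblasts and of denervated muscle. UCHL1 is an abundant deubiquitinating enzyme of neurons.

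The 8 genes did not move as a block. Nefl, Nefm and L1cam were more than 2-fold above the control with overexpression and more than 2-fold below it with knockdown, a pattern shared by 41 of 10165 genes compared (0.403%). Gap43 was above the control with overexpression and within counting error of it with knockdown, Nes moved in the same directions as the neurofilament genes by less than 2-fold, Stmn2 was below the control in both lines, and Ncam1 and Uchl1 had values above it in both, beyond counting error only for Ncam1 with knockdown. With overexpression 4 of the 8 were at least 2-fold higher, against 3.64% of all genes compared, and 1 was at least 2-fold lower, against 3.47%. With knockdown 4 were at least 2-fold lower, against 4.19%, and 1 was at least 2-fold higher, against 3.38%. Where the 95% interval also had to leave out 1, the count with overexpression was again 4 higher (2.58% of all genes) and 1 lower (1.89%), and with knockdown it was 2 lower, Nefl and Stmn2 (2.28%), and none higher (2.16%). The genes were picked from these same contrasts, so nothing is read from those shares. Nefm and L1cam averaged 1 RPKM only through the overexpression library, and Uchl1 only through the knockdown library. That minimum therefore fixes in part their place among the genes compared.

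**Figure D1:**
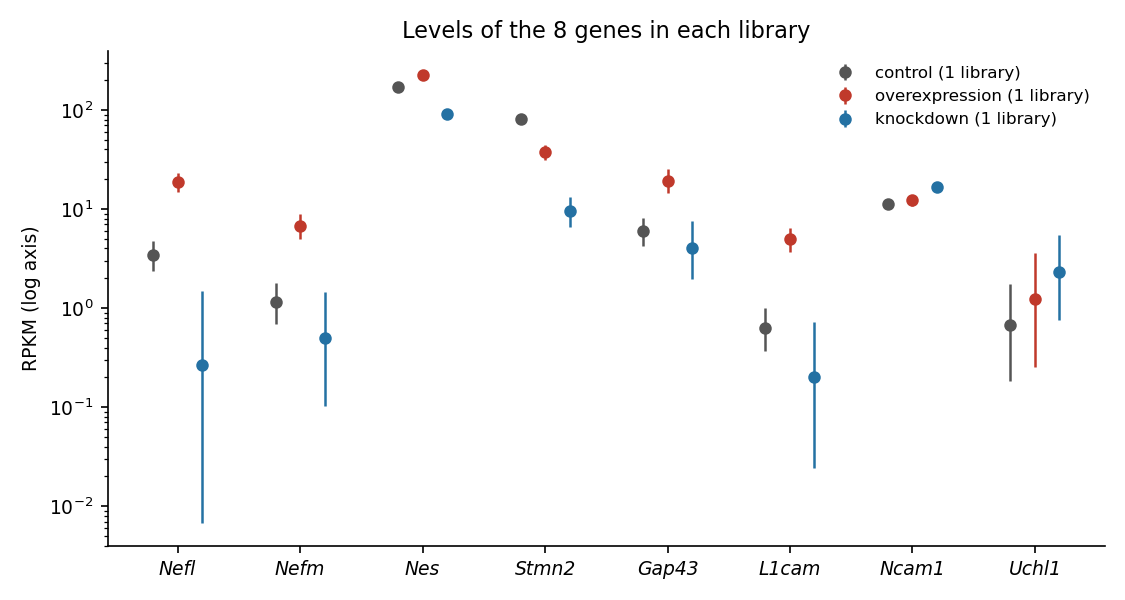
RPKM of the 8 genes on a log axis in the control (grey), overexpression (red) and knockdown (blue) libraries. Each point is 1 library and bars are 95% Poisson intervals of the recovered reads; Nefl runs from 0.266 RPKM with knockdown to 18.8 RPKM with overexpression, while Ncam1 stays between 11.2 and 16.6 RPKM.

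The levels of the 8 genes spanned a wide range in the control. Nes was by far the most abundant at 170.1 RPKM, followed by Stmn2 at 81.9, Ncam1 at 11.2, Gap43 at 5.99, Nefl at 3.41, Nefm at 1.15, Uchl1 at 0.680 and L1cam at 0.627 RPKM. Among neighbours in this order, Gap43 and Nefl had overlapping intervals, as did Nefm and Uchl1, and Uchl1 and L1cam. With overexpression the order became Nes, Stmn2, Gap43, Nefl, Ncam1, Nefm, L1cam and Uchl1, and the neighbours whose intervals overlapped were Gap43 with Nefl and Nefm with L1cam. With knockdown Ncam1 took the second place above Stmn2, and from Stmn2 downwards every gene had an interval that overlapped that of the next.

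Nefl was at 3.41 RPKM in the control, and overexpression gave 18.8 and knockdown 0.266 RPKM, from 35, 79 and 1 reads. The overexpression library was thus the highest and the knockdown library the lowest, with no overlap of the 3 intervals. The ratio to the control was 5.50 with overexpression (95% interval 3.65 to 8.44) and 0.0780 with knockdown (0.00192 to 0.464). Set directly against knockdown, which leaves the control out, overexpression was 70.5-fold higher, and the interval of 12.3 to 2818 shows how little the single knockdown read fixes the size. This was the highest direct ratio of the 10122 genes that averaged 1 RPKM or more and were never listed at 0. Genes listed at 0 with knockdown, such as Stmn4, are left out of that ranking. Nefl stays in it by 1 read and was chosen with its values known, so nothing is read from the rank.

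Nefm was at 1.15, 6.76 and 0.495 RPKM, from 19, 46 and 3 reads. Overexpression lay clear of the other libraries, whose intervals overlapped. The ratio was 5.90 with overexpression (3.39 to 10.7), close to that of Nefl, and 0.431 with knockdown (0.0817 to 1.47), so the lower value with knockdown is within counting error. Directly, overexpression was 13.7-fold above knockdown (4.40 to 68.8). Per length, Nefl stood at 2.97 times the RPKM of Nefm in the control and at 2.77 times with overexpression, and at 0.538 with knockdown, where the genes had 1 and 3 reads.

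Nefl and Nefm are neighbours on chromosome 14 of mm9. GENCODE places Nefl at 68701920 to 68707152 on the forward strand and Nefm at 68700647 to 68742903 on the reverse strand. The shorter of the 2 Nefm transcripts starts beyond Nefl, at 68737340, and shares no exon base with it, while the longer one runs across Nefl and shares 1108 exonic bases with it on the opposite strand. Whether reads were counted by strand is not given in the sources used here. The length at which Nefm gave whole reads was 3230 nt, against 3334 and 3680 nt for the annotated transcripts. The next expressed gene, Dock5, lies 150.3 kb from Nefl and was at 9.07, 5.15 and 6.80 RPKM, below the control with overexpression (ratio 0.567), Kctd9 was at 6.60, 6.75 and 6.12 RPKM, and the other neighbours, Gnrh1, Adam7, Adamdec1 and Adam28, were at or near 0.

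Nes, on chromosome 3 (87775000 to 87784373, forward strand), was at 170.1, 226.9 and 92.2 RPKM. With 5346, 2927 and 1061 reads these are the best counted values of the set and their intervals do not overlap. The ratios were 1.33 (1.27 to 1.396) and 0.542 (0.507 to 0.579), in the same directions as those of the neurofilament genes and under 2-fold in each. Directly, overexpression was 2.46-fold above knockdown (2.29 to 2.64). Des, the muscle intermediate filament gene, had nearly the same ratios of 1.33 (1.25 to 1.41) and 0.499 (0.456 to 0.545).

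**Figure D2:**
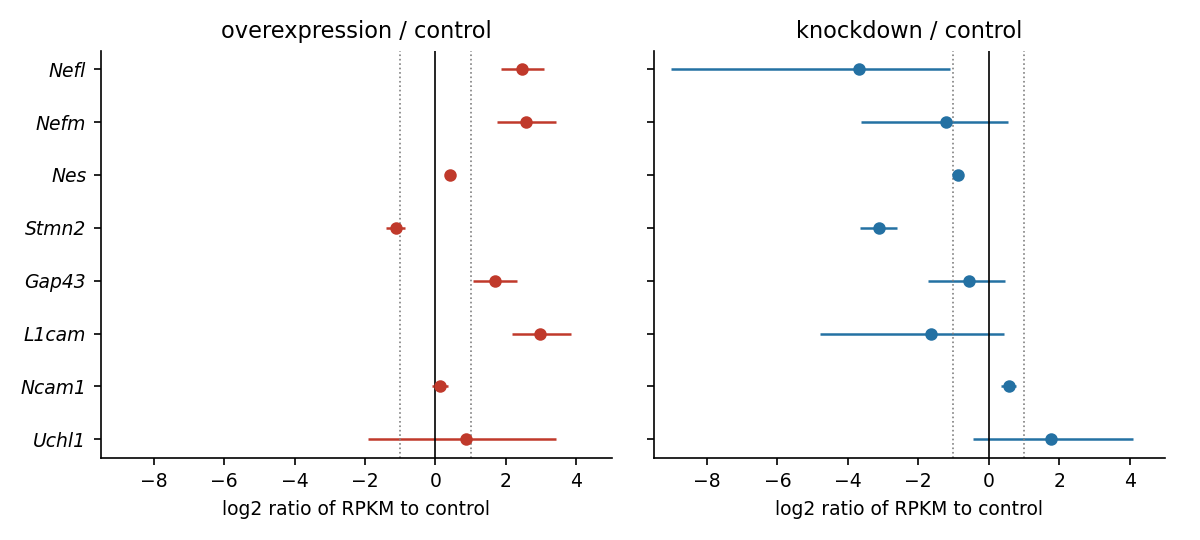
Log2 ratios of RPKM to the control with overexpression (left) and knockdown (right) for the 8 genes, 1 library per condition. Bars are 95% Clopper-Pearson intervals from reads and dotted lines mark 2-fold; with knockdown only the bars of Nefl, Nes, Stmn2 and Ncam1 stay clear of 0.

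Stmn2, on chromosome 3 (8509527 to 8561604, forward strand), departed from the others. It was at 81.9 RPKM in the control, where it ranked above 97.7% of the genes averaging 1 RPKM or more, at 37.4 with overexpression and at 9.51 with knockdown, from 800, 150 and 34 reads. The control was thus the highest library and knockdown the lowest, with 3 intervals that do not overlap. Overexpression gave a ratio of 0.457 (0.381 to 0.545). The knockdown ratio of 0.116 (0.0798 to 0.164) was the 11th lowest of the 10122 genes that averaged 1 RPKM or more and were never listed at 0. Genes listed at 0 with knockdown are left out of that ranking. Stmn2 was also chosen with its values known, so nothing is read from the rank. Overexpression was still 3.94-fold above knockdown (2.70 to 5.89). Stmn2 therefore shares with Nefl, Nefm and L1cam its direction in the direct comparison of the 2 altered lines, by a smaller ratio, but not its direction against the control with overexpression.

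Gap43, on chromosome 16 (42248555 to 42340764, reverse strand), was at 5.99, 19.3 and 4.09 RPKM, from 40, 53 and 10 reads. Overexpression lay above the other libraries, which overlapped. The ratio was 3.23 with overexpression (2.10 to 4.996) and 0.683 with knockdown (0.305 to 1.39). A difference between the knockdown and control lines was therefore not detectable at this depth. Overexpression was 4.73-fold above knockdown (2.38 to 10.4).

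L1cam, on the X chromosome (71099117 to 71141444, reverse strand), was at 0.627, 4.94 and 0.201 RPKM, from 17, 55 and 2 reads. It had the highest overexpression ratio of the 8, 7.88 (4.51 to 14.5), which was the 19th highest of the 10122 genes. L1cam averaged 1 RPKM only through the overexpression library and was chosen with its values known, so that rank is fixed in part. The knockdown ratio of 0.321 (0.0360 to 1.35) came from 2 reads and is within counting error. Directly, overexpression was 24.5-fold above knockdown (6.48 to 207.6). Because the control level is low, an added 1 RPKM brings the overexpression ratio to 3.65. Arhgap4 and Avpr2, whose annotated spans overlap that of L1cam, were listed at 0 in all 3 libraries, and Naa10, 20.8 kb away, was at 12.9, 13.0 and 14.1 RPKM.

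Ncam1, on chromosome 9 (49310257 to 49607027, reverse strand), was at 11.2, 12.3 and 16.6 RPKM, from 543, 245 and 294 reads. Knockdown was the highest library and stood apart from the control and from overexpression, which overlapped. The ratios were 1.10 with overexpression (0.942 to 1.28) and 1.48 with knockdown (1.28 to 1.71). Of the well counted members it was the only one above the control with knockdown, and the direct ratio of overexpression to knockdown was 0.743 (0.625 to 0.884).

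Uchl1, on chromosome 5 (67067360 to 67078472, forward strand), was near the limit of detection at 0.680, 1.24 and 2.32 RPKM, from 4, 3 and 5 reads. All 3 intervals overlapped. The ratios of 1.83 with overexpression (0.268 to 10.8) and 3.41 with knockdown (0.735 to 17.2) are within counting error.

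Upstream sequences were at hand for L1cam, Nes and Uchl1, members with 3 different patterns of level. They are shown because MyoD, a master transcription factor of muscle, recognizes E-boxes. Each is the 250 bases before the RefSeq start lying farthest upstream, read 5′ to 3′ on the strand of the gene from windows of the GRCm38.p6 build and placed on mm9 by 1 exact match. Capitals mark each E-box, searched as CANNTG, which reads the same on both strands.
L1cam (chrX:71126174-71126423, reverse strand): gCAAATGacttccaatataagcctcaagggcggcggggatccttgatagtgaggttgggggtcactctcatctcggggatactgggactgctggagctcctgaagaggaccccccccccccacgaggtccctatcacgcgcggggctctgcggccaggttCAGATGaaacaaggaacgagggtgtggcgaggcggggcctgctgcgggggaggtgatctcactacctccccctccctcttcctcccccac
Nes (chr3:87774765-87775014, forward strand): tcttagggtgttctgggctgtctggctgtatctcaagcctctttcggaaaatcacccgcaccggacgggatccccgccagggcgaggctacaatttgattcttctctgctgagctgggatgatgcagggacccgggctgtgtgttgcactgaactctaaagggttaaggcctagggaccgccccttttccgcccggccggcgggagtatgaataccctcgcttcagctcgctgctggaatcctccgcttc
Uchl1 (chr5:67067110-67067359, forward strand): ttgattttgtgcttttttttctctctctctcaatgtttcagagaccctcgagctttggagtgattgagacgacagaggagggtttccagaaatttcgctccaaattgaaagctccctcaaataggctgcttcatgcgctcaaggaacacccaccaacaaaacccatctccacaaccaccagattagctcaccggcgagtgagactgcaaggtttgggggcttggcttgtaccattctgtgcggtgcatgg
The L1cam window held 2 E-boxes, CAAATG beginning 249 bases and CAGATG beginning 90 bases before the start, and the windows of Nes and Uchl1 held none. Of 32851 windows of this length, 66.2% held at least 1 CANNTG and 13.0% held CAGCTG, the form without a match in any of the 3 windows. The L1cam window lies within the GENCODE span of the gene and outside its annotated exons, the Nes window reaches 15 bases into an annotated exon, and the Uchl1 window lies outside the gene. A match is a description of the letters only. The windows of Nefl, Nefm, Stmn2, Gap43 and Ncam1 were not analysed here.

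**Figure D3:**
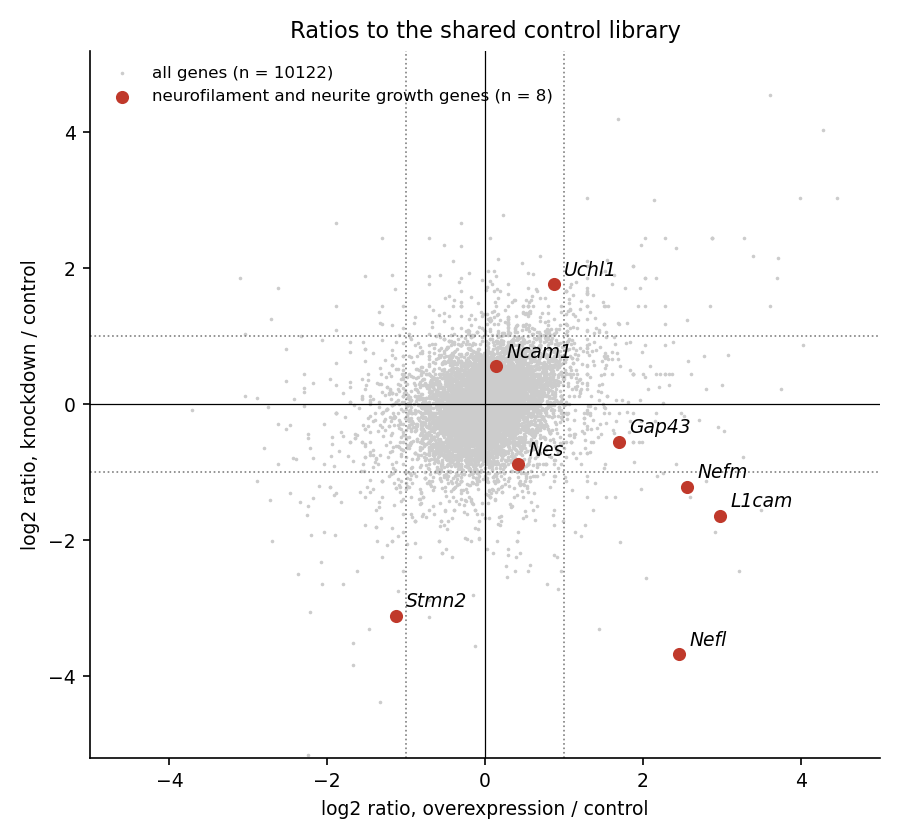
Log2 ratios to the shared control with overexpression (x axis) and knockdown (y axis) for 10122 genes that averaged 1 RPKM or more and were never listed at 0 (grey), 2 of them beyond the axes. The 8 named genes are in red and dotted lines mark 2-fold; Nefl, Nefm and L1cam lie in the lower right corner, Stmn2 in the lower left.

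The genes whose pair of ratios lay nearest to each member were sought over 10122 genes, by the distance in the 2 log2 ratios to the control. Nefl was the most isolated, with no gene within 0.5, and its nearest were Cd55 at a distance of 1.09, Has1 at 1.205 and Cmah at 1.43. Nefl and each of these genes had 1 read with knockdown, and genes listed at 0 with knockdown were left out. The isolation of Nefl is therefore fixed in part by single reads and by that filter. Around Nefm there were 5 genes within 0.5, the nearest being Pdlim3 at 0.15, Sorbs2 at 0.25 and Actc1 at 0.37. The nearest to L1cam were 9330159F19Rik at 0.24, Pdlim3 at 0.48 and Prrg4 at 0.52, and those to Stmn2 were S1pr3 at 0.36, Serpina3g at 0.39 and Cish at 0.42. Gap43 had 36 genes within 0.5, led by Atp5j, Hspb1 and Foxo6. Uchl1 had 43, led by Rnpc3, Sec61g and 3830403N18Rik. Nes, with 523 genes within 0.5, and Ncam1, with 2534, lay in the crowded middle, nearest to Rap2b, Camkk1 and Olfm1 and to Tnrc6b, Aco1 and H2afz. These distances rest on 3 libraries that share a control, several of them on few reads, and are given as a description.

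The relatives of the neurofilament genes were mostly silent. Of 7 other listed intermediate filament genes, Nefh, the heavy neurofilament chain, Ina and the astrocyte gene Gfap were listed at 0 in all libraries, and Prph had at most 2 reads in any. Synm was at 0.149, 0.242 and 0.542 RPKM. Vim and Des alone of the 7 averaged 1 RPKM or more, the level from which a gene is called measured here. Vim, the filament of mesenchymal cells, was at 1867, 1870 and 1383 RPKM, with ratios of 1.002 (0.968 to 1.04) and 0.741 (0.712 to 0.771). Neither gene was at least 2-fold higher or lower with overexpression, and Des was at least 2-fold lower with knockdown.

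Among the stathmins, Stmn1, the widely expressed member, was at 47.3, 63.6 and 64.8 RPKM. Its ratios of 1.35 (1.09 to 1.66) and 1.37 (1.10 to 1.70) lay on the other side of the control from those of Stmn2. Stmn4, a neural member, was at 2.53 and 6.55 RPKM in the control and overexpression libraries and listed at 0 with knockdown, from 16, 17 and 0 reads, with ratios of 2.59 (1.23 to 5.48) and 0 (0 to 0.708). Stmn3 was listed at 0 throughout.

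Of 15 genes of the growth cone and axonal microtubules other than Gap43, 8 were measured. With overexpression 1 was at least 2-fold higher (3.64% of all genes) and none lower (3.47%), and with knockdown 1 was higher (3.38%) and none lower (4.19%). Tubb3, the neuronal β-tubulin, was at 26.2, 92.6 and 19.8 RPKM from 232, 336 and 64 reads, with ratios of 3.53 (2.98 to 4.19) and 0.754 (0.562 to 0.998). Nrn1, a neuritin, was at 1.96, 2.08 and 6.68 RPKM and its knockdown ratio was 3.41 (1.68 to 7.05). Basp1, a membrane protein akin to GAP-43, was the most abundant of the list in the control at 76.0 RPKM, with 97.0 and 59.4 in the altered lines, ratios of 1.28 (1.13 to 1.45) and 0.782 (0.667 to 0.914). The microtubule protein gene Mtap1b was at 40.9, 39.4 and 39.6 RPKM. Marcks, Marcksl1, Dpysl2 and Dpysl3 were all within 1.5-fold of the control in both lines, and Dcx, Dpysl4 and Dpysl5 were listed at 0.

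The axon injury response comprises genes that rise in neurons whose axon is cut. Of 6 listed genes 4 were measured, and with overexpression 3 of the 4 stood 2-fold or more above the control, against 3.64% of all genes. Hspb1, a small heat shock protein, was at 119.4, 368.2 and 91.4 RPKM, with ratios of 3.08 (2.755 to 3.45) and 0.766 (0.637 to 0.917). Sox11, a transcription factor of immature neurons, was at 4.52, 10.8 and 3.15 RPKM, with ratios of 2.40 (1.96 to 2.94) and 0.697 (0.5002 to 0.955). Sprr1a had 3, 6 and 0 reads, so that its overexpression ratio of 4.87 (1.04 to 30.1) rests on few counts. It averaged 1 RPKM only through the overexpression library, so that minimum fixes its call in part. It is also the 1 gene counted lower with knockdown, against 4.19% of all genes. The list was chosen with earlier results of these data known, so nothing is read from these counts. Jun was at 25.7, 46.3 and 22.6 RPKM, a ratio of 1.80 (1.55 to 2.09) with overexpression. Hspb1 and Jun are also expressed outside neurons.

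**Figure D4:**
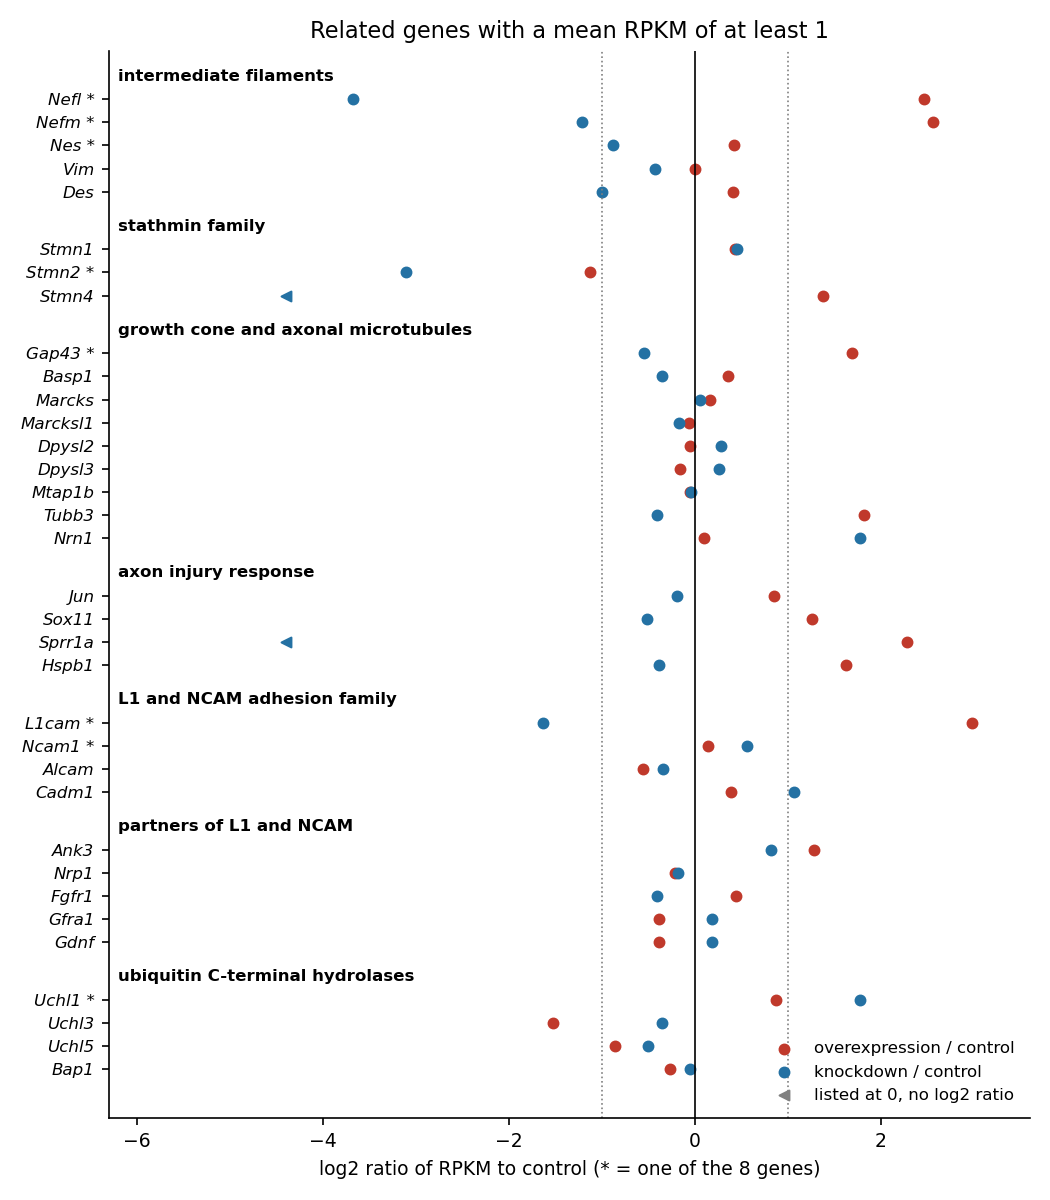
Log2 ratios of RPKM to the control for listed relatives averaging 1 RPKM or more, with overexpression (red) and knockdown (blue), 1 library each; asterisks mark the 8 genes, dotted lines 2-fold, and arrowheads genes listed at 0 with knockdown, Stmn4 and Sprr1a. Most relatives lie within 2-fold, while with overexpression Tubb3, Hspb1, Sox11, Stmn4, Sprr1a and Ank3 lie to the right of it and Uchl3 to the left.

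The adhesion relatives of L1cam and Ncam1 gave little signal. Of 9 other listed genes, Chl1, Nfasc, Ncam2, Cntn1 and Cntn2 were listed at 0 in all libraries, Nrcam and Negr1 had 1 read each, and 2 were measured. Alcam was at 8.29, 5.65 and 6.55 RPKM, with ratios of 0.681 (0.502 to 0.913) and 0.790 (0.584 to 1.05). Cadm1, an adhesion molecule of the same superfamily, was at 1.91, 2.49 and 4.01 RPKM and its knockdown ratio was 2.10 (1.29 to 3.38). Of 8 partners of L1CAM and NCAM, 5 were measured. Ank3, an ankyrin that anchors L1CAM to spectrin, was at 0.620, 1.51 and 1.10 RPKM, a ratio of 2.44 with overexpression (1.47 to 4.04) and 1.77 with knockdown (0.985 to 3.11). It averaged 1 RPKM only through the overexpression library, so that minimum fixes its call in part. Fgfr1, a receptor that NCAM engages, was the most abundant at 21.8, 29.7 and 16.4 RPKM. St8sia2, which adds polysialic acid to NCAM, averaged 0.679 RPKM and so was not among the measured genes. It had 10, 1 and 16 reads, and its knockdown level of 1.58 RPKM was 4.37 times that of the control (1.86 to 10.8).

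Of the 3 other ubiquitin C-terminal hydrolases, Bap1 was the most abundant at 9.73, 8.09 and 9.38 RPKM. Uchl3, at 1.47, 0.511 and 1.15 RPKM, counted as 2-fold lower with overexpression, but its 7, 1 and 2 reads leave an interval of 0.00772 to 2.71. All 10 listed genes of the REST repressor complex, which silences neuronal genes in other tissues, were measured, and all lay within 2-fold of the control in both lines. So did most of all genes compared, by the shares given below, and nothing is read from that count. Hdac1, with 9, 7 and 4 reads, had an overexpression ratio of 1.90 (0.600 to 5.72). Rest itself was at 5.85, 6.79 and 4.12 RPKM, with ratios of 1.16 (0.842 to 1.59) and 0.704 (0.465 to 1.04). Over the 36 measured genes of all 8 pathway lists other than the members, 6 were at least 2-fold higher and 1 lower with overexpression (16.7% and 2.78%), and 2 higher and 3 lower with knockdown (5.56% and 8.33%). Over all genes compared the shares were 3.64% and 3.47% with overexpression and 3.38% and 4.19% with knockdown. Sprr1a and Ank3, counted among the 6, averaged 1 RPKM only through the overexpression library. The lists were also chosen with earlier results of these data known, so nothing is read from the shares of the 36 genes. The median log2 ratio of the 36 was 0.11 with overexpression and −0.13 with knockdown, where all measured genes had 0.00 and −0.01 and the 8 genes themselves 1.28 and −1.05.

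Markers of neurons and glia were checked beside these values. Of 14 neuron markers, 9 were listed at 0 in all 3 libraries, including Rbfox3, Snap25, Elavl3, Elavl4 and Neurod1, and 3 were measured. The summed level of the 14 was 41.1, 105.4 and 28.4 RPKM, most of it from Tubb3. Syn1, a synaptic vesicle protein, was at 6.07, 5.32 and 2.65 RPKM, a ratio of 0.437 with knockdown (0.241 to 0.745), and the enolase gene Eno2 at 8.74, 5.96 and 5.67 RPKM. Mtap2, the dendritic microtubule protein, had 2, 18 and 1 reads, 0.0706, 1.55 and 0.0965 RPKM. None of the 7 glia markers was measured, and their summed level lay between 0.494 and 0.796 RPKM.

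Genes of early muscle differentiation were checked in the same way. Myog, the transcription factor of differentiating myoblasts, was at 3.95, 22.1 and 3.598 RPKM, and 4 of 6 measured genes of this list, Myog, Actc1, Acta1 and Mylpf, stood 2-fold or more above the control with overexpression (3.64% of all genes) and none below (3.47%). Actc1 had 5, 11 and 1 reads and Acta1 8, 12 and 4. Actc1 and Mylpf averaged 1 RPKM only through the overexpression library, so their place among the 4 is fixed in part by that minimum, and nothing is read from the count. With knockdown none was higher (3.38% of all genes) and 1 was lower (4.19%), Mylpf, which had 1, 5 and 0 reads. The summed level of the 11 listed was 37.9, 90.9 and 40.5 RPKM, most of it in each library from Chrna1, an acetylcholine receptor subunit, at 28.7, 55.6 and 32.9 RPKM. Actc1 and Tnnc1 each had a knockdown ratio of 0.546, from 1 and 2 reads. Of the 6 myoblast markers 2 were 2-fold or more higher with overexpression (3.64% of all genes), Myod1 at 16.7, 34.1 and 9.76 RPKM and the integrin gene Itga7 at 16.8, 55.8 and 17.6 RPKM, and 2 were lower with knockdown (4.19%), Des and the cadherin gene Cdh15, the latter at 22.6, 41.8 and 10.9 RPKM. This list too was chosen with earlier results known, and nothing is read from its counts. The part of the stage of differentiation in the levels of the 8 genes was not tested, and in libraries of whole cultures, fewer cells that express a gene and less of its RNA per cell cannot be told apart.

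Of 42 genes next to the 8 on the chromosome, 3 on each side of each member, 21 were measured. With overexpression 1 was at least 2-fold higher, against 3.64% of all genes, and this was Tpd52, 367 kb from Stmn2, at 3.45, 8.96 and 6.49 RPKM. With knockdown 1 was at least 2-fold lower, against 4.19% of all genes, and this was the Notch target Hey1, 102 kb from Stmn2, at 2.12, 1.51 and 0.483 RPKM, a ratio of 0.228 that rests on few reads.

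Directly between the 2 altered lines, without the control, 6 of the 8 genes were at least 2-fold higher with overexpression than with knockdown, against 6.08% of all genes compared, and none was at least 2-fold lower, against 5.09%. In falling order these were Nefl, L1cam, Nefm, Gap43, Stmn2 and Nes, and each of the 6 intervals lay above 1, against 3.59% of all genes higher and 2.75% lower by that stricter rule. Most of the 8 were picked for standing high with overexpression and low with knockdown, so nothing is read from these shares either. At 1.5-fold Uchl1 alone counted as lower, against 12.6%, while with overexpression against the control 9.52% of all genes were lower by 1.5-fold and Stmn2 was the member among them. Among neighbours in that order the intervals overlapped from Nefl down to Stmn2, while Stmn2 and Nes did not overlap. Ncam1 stood below 1 and Uchl1, at 0.535 (0.0831 to 2.75), was within counting error.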

How the data were processed

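RNA-Seq libraries of 3 stable C2C12 lines, 1 per condition, were analysed. The authors aligned to mm9 by TopHat, listed by the submitters' processing notes as 1.4.1, then took gene coverage with DEGSeq, and the deposited values are RPKM. The sources used here do not give gene models, strand or the treatment of multiply mapped reads.

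Ratios were taken without a pseudocount. Genes called measured had a mean RPKM of at least 1 over the 3 libraries. The criterion was 2-fold, as in the study's methods. RPKM times a GENCODE transcript length piles up at whole multiples of 1 read, which gave each read total. Reads per gene were taken at an annotated length giving whole reads in all libraries, or else at the smallest length from 200 to 20000 nt within 1e-05 per read, so they are a lower estimate for most genes. Among the members, Stmn2 and Nes used annotated lengths. The steps were tested on simulated data.

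The members and the gene lists were chosen with earlier results of these data known. Named are all members, list genes at least 2-fold from the control, the most abundant of each list, genes at 0 where markers were checked, the 3 nearest genes in the 2 log2 ratios and 3 neighbours on each side. Other list genes (Jun, Stmn1, Alcam, Rest, Syn1, Eno2, Synm, Prph, St8sia2, Mtap2, Myf5, Mtap1b and those within 1.5-fold) were named after their values were seen. Promoter windows are RefSeq's, found for 3 of 8 members. Software comprised matplotlib 3.10.9, scipy 1.17.1, pandas 2.3.3 and numpy 2.4.6 under Python 3.11.15.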

Additional observations from a re-analysis of the deposited data

How the results depend on the processing

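Counts of members past 2-fold were recomputed with 1 or 0.1 RPKM added, after division by the median or a trimmed mean ratio, at 1.5-fold, with the counting interval required to exclude 1, and with a minimum mean of 1 or 5 RPKM. The number higher with overexpression went from 4 to 2 with the 5 RPKM minimum. At 1.5-fold this number and the number lower with knockdown were each 5. The number lower with knockdown went from 4 to 2 with 1 RPKM added, with the interval required, and at the 5 RPKM minimum. The number higher with knockdown, 1, became 0 under those same 3 settings. At 1.5-fold 1 member, Uchl1, was lower in overexpression than in knockdown, where there was none at 2-fold. Of the other list genes, those higher with overexpression numbered 6 and became 3 with the 5 RPKM minimum, 10 without a filter and 8 at 1.5-fold. Those lower, 1, became 0, 5 and 2 in that order. Those higher with knockdown, 2, became 0, 4 and 3, and those lower, 3, became 1, 11 and 4. Of the recomputed ratios of single members, 94 stayed within the counting interval. The exceptions were the L1cam ratios with 1 RPKM added, 3.65 to the control and 4.94 to knockdown. Members with few reads have wide intervals, so this check says little about them. With 1 RPKM added, the Nefl ratio of overexpression to knockdown fell from 70.5 to 15.6. The knockdown ratios to the control rose from 0.0780 to 0.287 for Nefl and from 0.431 to 0.696 for Nefm. No paired analysis was possible because each condition has 1 library. Depth limits the knockdown values of Nefl, Nefm and L1cam and all values of Uchl1 most.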
